A study of Mus musculus with 6 samples.

Results

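The cardiac myosin heavy and light chain genes were followed through the peak lists of 6 Omni-ATAC-Seq libraries of mouse heart nuclei. The set holds 9 of 21853 protein-coding genes: the heavy chain genes Myh6, Myh7 and Myh7b, the light chain genes Myl2, Myl3, Myl4 and Myl7, and the partner genes Mybpc3 and Mylk3. The genes were chosen by name, and every peak that overlapped a gene body or the 10 kb on either side of it (GENCODE M21, mm10) was taken. Peaks of the 6 libraries that overlapped were merged, which gave 93 regions out of 169881 in the whole series.

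Omni-ATAC-Seq uses a transposase that cuts accessible chromatin and attaches sequencing adapters to the cut ends. All nuclei came from hearts at postnatal day 1 (P1), were purified over a 2.2 M sucrose cushion, and were used at 50000 for each library, with 2 biological replicates in each of 3 groups. The Input nuclei came from wildtype (WT) C57BL/6J hearts and were not immunoprecipitated. The PCM1 nuclei also came from WT hearts and were captured by magnet-assisted nuclear immunoprecipitation (MAN-IP) with an antibody to PCM1, a protein that surrounds cardiomyocyte (CM) nuclei. The Myc nuclei came from Nkx2-5 Cre/+; R26RSun1-Myc-Egfp/+ hearts, in which Cre recombination places a Myc-tagged protein on the nuclear membrane, and were captured with a Myc antibody. The Nkx2-5 Cre driver acts in progenitors of CMs, smooth muscle cells and endothelial cells, and the tag stays on in their descendants. Myc and PCM1 therefore differ in genotype and antibody, and Myc and Input in genotype and capture, and within each pair these differences cannot be told apart. The number of hearts behind a library is not given in the sources used here.

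Myosin is the motor of the sarcomere. Its heavy chains hold the ATPase head and the rod that packs into the thick filament, and each heavy chain carries an essential and a regulatory light chain at its neck. Myh6 encodes the fast alpha heavy chain and Myh7 the slow beta heavy chain. Both genes lie in tandem, and in the mouse ventricle the alpha chain replaces the beta chain around birth. Myl2 and Myl3 encode the ventricular regulatory and essential light chains, and Myl7 and Myl4 are their atrial counterparts. Mybpc3 encodes cardiac myosin binding protein C, which lies along the thick filament, and Mylk3 encodes the cardiac kinase that phosphorylates the regulatory light chain. Myh7b is a slow-type heavy chain gene that also hosts a microRNA.

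The peak caller scored each summit by the number of overlapping tags (read ends extended to 200 bp) against the local background. From the deposited fold and p-value of each summit, the tag count at the summit was recovered as a whole number for 99.998 to 100% of summits. The tag count in the surrounding 10 kb could be recovered only where it exceeded the genome background, at 71.8 to 85.4% of summits. Of these counts, 99.998 to 100% were whole. Elsewhere the genome background stood in for the 10 kb count. The inferred depths were 37000000 and 9580000 tags for Input, 13500000 and 13400000 for Myc, and 9130000 and 8440000 for PCM1. Summit tags are given below as CPM, the tags at the summit for every 1000000 tags of the library. Input replicate 1 was the deepest library and held 83 peaks in the windows of the 9 genes, whereas the other 5 libraries held 58 to 71. Where a peak is missing, no signal past the threshold was detectable in that library. In each library a peak also has a rank percentile, which is its place by q-value among all peaks of the library, with 100 for the strongest and 0 where no peak was called. Values of 2 replicates are given in the order replicate 1 and replicate 2.

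The sequences below are from the GRCm38 (mm10) assembly and are shown because the results turn on these promoters and regions. The first set holds bases before an annotated start site of the fast and slow heavy chain genes and of the ventricular and atrial regulatory light chain genes. They run 5′ to 3′ on the strand of the gene. The Myh6, Myh7 and Myl7 sequences are from the RefSeq promoter table, in which all 9 genes were found, and the Myl2 sequence was read from the genome before the start that both annotations share. The RefSeq start of Myh6 lies inside the gene, downstream of the first start from which distances are measured below. Bases next to the RefSeq start that an mRNA exon holds were left out, so 212 bases are shown for Myh6 and 250 for the others. Capitals mark matches to 7 short motifs, searched on both strands.
Myh6 promoter, chr14:54966646-54966857, minus strand: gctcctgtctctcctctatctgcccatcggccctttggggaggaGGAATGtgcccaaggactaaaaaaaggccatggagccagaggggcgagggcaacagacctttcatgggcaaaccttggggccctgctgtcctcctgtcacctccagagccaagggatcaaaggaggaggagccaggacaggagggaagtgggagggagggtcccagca
Myh7 promoter, chr14:54994627-54994876, minus strand: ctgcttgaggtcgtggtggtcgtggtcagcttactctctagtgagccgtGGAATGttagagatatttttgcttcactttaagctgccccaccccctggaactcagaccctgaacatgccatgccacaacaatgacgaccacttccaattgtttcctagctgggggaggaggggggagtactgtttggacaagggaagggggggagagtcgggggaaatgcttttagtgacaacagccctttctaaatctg
Myl2 promoter, chr5:122100701-122100950, plus strand: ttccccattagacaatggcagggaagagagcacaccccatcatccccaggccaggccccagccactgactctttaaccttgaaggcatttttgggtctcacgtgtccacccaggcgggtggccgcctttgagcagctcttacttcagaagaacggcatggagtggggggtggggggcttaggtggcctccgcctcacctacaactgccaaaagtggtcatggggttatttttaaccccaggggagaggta
Myl7 promoter, chr11:5898783-5899032, minus strand: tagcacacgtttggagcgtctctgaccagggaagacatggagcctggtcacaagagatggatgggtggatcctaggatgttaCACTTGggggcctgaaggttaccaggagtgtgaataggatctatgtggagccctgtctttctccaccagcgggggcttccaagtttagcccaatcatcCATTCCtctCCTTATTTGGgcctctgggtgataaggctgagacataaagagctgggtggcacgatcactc

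Outside the promoters, 3 regions carried the strongest heavy chain signals, and the 201 bases around their summits are shown on the plus strand, with capitals as above. One lies in the gap between Myh6 and Myh7, and the other two lie 2.4 kb and 9.4 kb upstream of Myh7.
Gap between Myh6 and Myh7, chr14:54968385-54968585: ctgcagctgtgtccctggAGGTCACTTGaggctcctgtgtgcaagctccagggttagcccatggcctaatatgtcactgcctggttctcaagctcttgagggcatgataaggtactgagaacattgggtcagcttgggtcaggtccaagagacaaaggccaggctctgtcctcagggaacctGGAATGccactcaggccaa
Myh7 2.4 kb upstream, chr14:54996911-54997111: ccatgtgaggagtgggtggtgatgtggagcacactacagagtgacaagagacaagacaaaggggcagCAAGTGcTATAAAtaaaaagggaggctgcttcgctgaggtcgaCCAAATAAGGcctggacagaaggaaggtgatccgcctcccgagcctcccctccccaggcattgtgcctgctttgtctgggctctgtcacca
Myh7 9.4 kb upstream, chr14:55003971-55004171: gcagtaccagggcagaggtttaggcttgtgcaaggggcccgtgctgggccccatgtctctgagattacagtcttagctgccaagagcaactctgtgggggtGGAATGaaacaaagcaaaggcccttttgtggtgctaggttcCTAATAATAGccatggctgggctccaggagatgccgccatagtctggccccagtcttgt

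The MCAT motif, a site of TEAD factors, was searched as CATTCC. The NKX2-5 motif was searched as CAAGTG. The GATA motif was searched as AGATAA. For nuclear receptors, thyroid hormone receptors among them, the search used AGGTCA. The TATA box was searched as TATAAA, and the MEF2 and CArG sites by their usual degenerate forms. The Myh6 and Myh7 promoters each held an MCAT match, and the Myl7 promoter held NKX2-5, MCAT and CArG matches. The Myl2 promoter held no match to the searched forms. In the gap region the AGGTCA and NKX2-5 matches shared bases, and an MCAT match lay further along. The 2.4 kb region held NKX2-5, TATAAA and CArG matches, and the 9.4 kb region held MCAT and MEF2 matches. These motifs are common: MCAT was present in 12.6% and AGGTCA in 14.0% of 32817 RefSeq promoters (250 bases before the start). Rarer were the MEF2 site, in 0.509%, and the CArG site, in 1.47%. NKX2-5 was present in 11.6%, GATA in 9.99% and TATAAA in 12.4%.

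Within the 201 bases around the summit, MCAT was present in 12 of the 46 member regions called in all 6 libraries (26.1%) and in 14.2% of all 48861 such regions. AGGTCA was present in 14 member regions (30.4%, against 15.1% of all), MEF2 in 3 (6.52%, against 2.64%) and CArG in 2 (4.35%, against 1.21%). GATA was present in 6 (13.0%, against 10.2%), NKX2-5 in 5 (10.9%, against 12.4%) and TATAAA in 4 (8.70%, against 6.30%). These shares describe letters in a window and were not tested.

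Of the 93 regions, 46 were called in all 6 libraries, 30 in 2 to 5 libraries, and 17 in 1 library. Among all merged regions of the series, 28.8% were called in all 6 libraries. Of those 17, 9 were from Input replicate 1, the deepest library. Regions within 1 kb of a start site of the gene numbered 19, and 15 of them were called in all 6 libraries. Of the remainder, 10 of 14 upstream regions, 14 of 34 intronic regions, 6 of 16 downstream regions and 1 of 7 coding exon regions were called in all 6, as was none of the 3 regions at the promoter of another gene. The median rank percentile was 87.5 for promoter regions and 78.7 for upstream regions, and 33.6 for intronic regions. By presence alone, 3 of the 93 regions were called in both Myc libraries and in neither PCM1 library, as were 8.69% of all merged regions, and 1 was called in both PCM1 and neither Myc library, as were 1.09% of all. The latter was the Myh6 intron region at chr14:54956498-54956916, which was also called in both Input libraries.

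A promoter peak was called in all 6 libraries for 7 of the 9 genes, and 59.1% of all protein-coding genes had one. The exceptions were Myh7, which lacked a promoter peak in Myc replicate 1, and Myl7, which lacked one in Myc replicate 1 and PCM1 replicate 2. The mean rank percentile of the promoter over the 6 libraries was highest for Mylk3, at 98.3 ± 1.61 (SD, n = 6). Myh6 followed at 96.1 ± 4.38, then Myl2 at 94.4 ± 3.05, Myl3 at 93.9 ± 2.82 and Mybpc3 at 93.5 ± 4.75. These neighbours lay within the spread between libraries of each other. Myl4 stood at 88.8 ± 4.18 and Myh7b at 87.5 ± 2.24, and these also lay within each other's spread. Far below them came Myh7 at 34.0 ± 22.1 and Myl7 at 22.3 ± 25.9. The order was not the same in each group. Myl4, read at a start it shares with Cdc27, was second of the 9 in Myc, with a mean of 92.9 above Myl2 (91.2) and Myh6 (90.7). In PCM1 it was seventh, with 85.5.

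**Figure D1:**
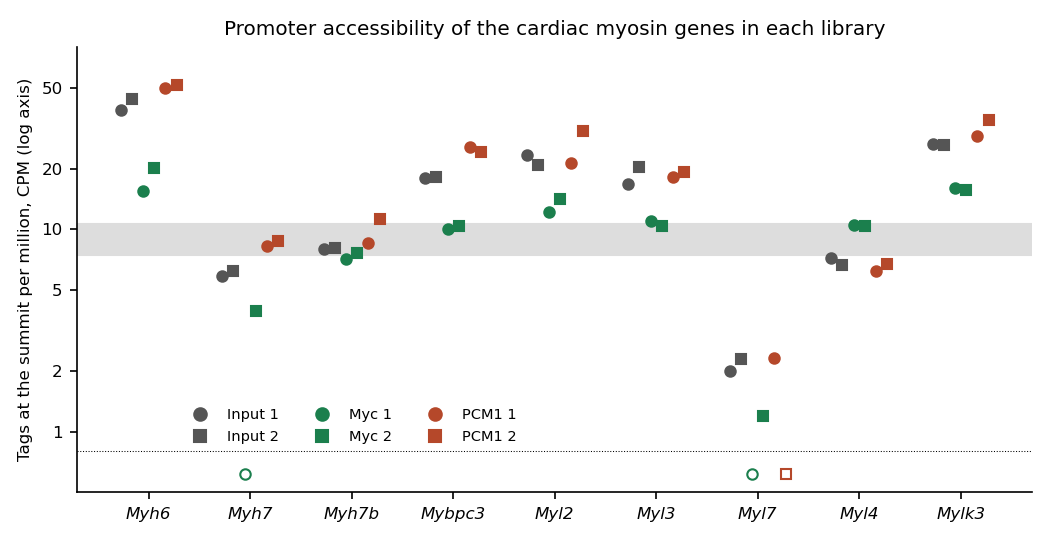
Promoter signal of the 9 genes in each library. The vertical axis (log scale) is the CPM at the strongest summit within 1 kb of a start site; circles are replicate 1, squares replicate 2, and colours the 3 groups. The grey band spans the median promoter of the libraries, 7.45 to 10.7 CPM, and open symbols under the dotted line mark libraries without a called peak. Myh6 reaches 51.8 in PCM1 and 15.6 in Myc, and Myl7 stays at or below 2.30.

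Myh6 (ENSMUSG00000040752.16, chr14:54941921-54966927, minus strand) had the most tags at its promoter of the 9 genes in 5 of 6 libraries. The summit of the region chr14:54966410-54967219 held 1442 and 423 tags in Input, 210 and 270 for Myc, and 456 and 437 for PCM1. In CPM this is 39.0 and 44.2 in Input against 15.6 and 20.1 in the Myc and 49.9 and 51.8 in the PCM1 libraries. Both Myc libraries were low, and neither overlapped Input or PCM1. The counting error was small beside this gap: the exact Poisson 95% interval was 13.6 to 17.8 CPM in Myc replicate 1 and 47.0 to 56.8 in PCM1 replicate 2. In a limma fit across the 48861 regions called in all 6 libraries, scaled to the median region, Myc was 2.96-fold below PCM1 at this summit (log2 difference -1.56 ± 0.10 SE, adjusted p = 2.64e-14). Myc was 2.62-fold below Input (-1.39 ± 0.10, limma adjusted p = 4.70e-13). PCM1 and Input differed by 0.17 ± 0.10 (limma adjusted p = 0.262), with a 95% interval from -0.02 to 0.37. In bulk nuclei, fewer CM nuclei and less accessible chromatin in each CM nucleus cannot be told apart.

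The region in the gap between Myh6 and Myh7 (chr14:54967893-54968868), with its summit at position -1558 from the Myh6 start, was as strong as the Myh6 promoter. Its summit held 39.7 and 41.9 CPM in Input, 15.1 and 18.8 after Myc capture, and 52.2 and 54.6 after PCM1 capture. Again both Myc libraries lay below the other 4. The Myc to PCM1 difference was -1.71 ± 0.09, or 3.27-fold (limma adjusted p = 7.48e-16), and the Myc to Input difference was -1.44 ± 0.09 (8.83e-14). PCM1 was above Input by 0.27 ± 0.09, which missed the threshold of 0.05 (limma adjusted p = 0.0545).

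The Myh6 gene body held weaker regions that ordered the groups in another way. At the intron region chr14:54959942-54960751, 6.8 kb into the gene, the summit held 5.49 and 4.91 CPM in Input, 4.45 and 4.99 for Myc, and 15.4 and 14.8 for PCM1. Here PCM1 stood alone above the other 4 libraries. PCM1 was 2.68-fold above Input (1.42 ± 0.18, limma adjusted p = 1.38e-06), and Myc and Input differed by -0.30 ± 0.18 (0.294). The coding exon region chr14:54953589-54954742 gave 4.92 and 4.91 in Input against 4.68 and 5.81 in the Myc and 10.7 and 10.3 in the PCM1 libraries (PCM1 above Input by 0.98 ± 0.19, limma adjusted p = 6.07e-04). The downstream region chr14:54937346-54940216 near Cmtm5 was also highest in PCM1, with 12.4 and 12.5 in Input, 9.35 and 10.5 after Myc capture, and 23.9 and 24.04 after PCM1 capture. There, however, Myc was also below Input (-0.49 ± 0.13, limma adjusted p = 0.00737).

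Myh7 (ENSMUSG00000053093.16, chr14:54970684-54994626, minus strand) had a weak promoter and strong upstream regions. The promoter region chr14:54994277-54995188 held 219 and 60 tags at its summit in Input, 53 in Myc replicate 2, and 76 and 74 in PCM1, and was not called in Myc replicate 1. This corresponds to 5.92 and 6.26 CPM in Input, 3.95 in Myc replicate 2, and 8.32 and 8.76 in PCM1. Its rank percentile was 67.0 and 40.5 in Input, 22.7 in Myc replicate 2, and 38.9 and 35.2 in PCM1. Since the promoter was not called in all 6 libraries, it entered no fit.

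At 2.4 kb upstream of Myh7 (chr14:54996680-54997536) the summit held 22.4 and 25.5 CPM in Input, 12.8 and 12.7 after Myc capture, and 25.6 and 29.8 after PCM1 capture. At 9.4 kb upstream (chr14:55003727-55005175) it held 32.8 and 38.0 in Input against 16.0 and 18.1 in the Myc and 44.4 and 52.8 in the PCM1 libraries. Both regions lie in exons of Gm31251, a predicted antisense non-coding gene of RefSeq, and in no mRNA exon. Myc was the lowest group in both, by -1.16 ± 0.11 and -1.55 ± 0.10 against PCM1 (limma adjusted p = 1.16e-09 and 2.74e-14). PCM1 was above Input at 9.4 kb (0.34 ± 0.10, limma adjusted p = 0.0198), while at 2.4 kb the difference was 0.09 ± 0.11 (0.667). With rank percentiles of 90.8 to 99.6, these upstream regions stood above the Myh7 promoter in every library.

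**Figure D2:**
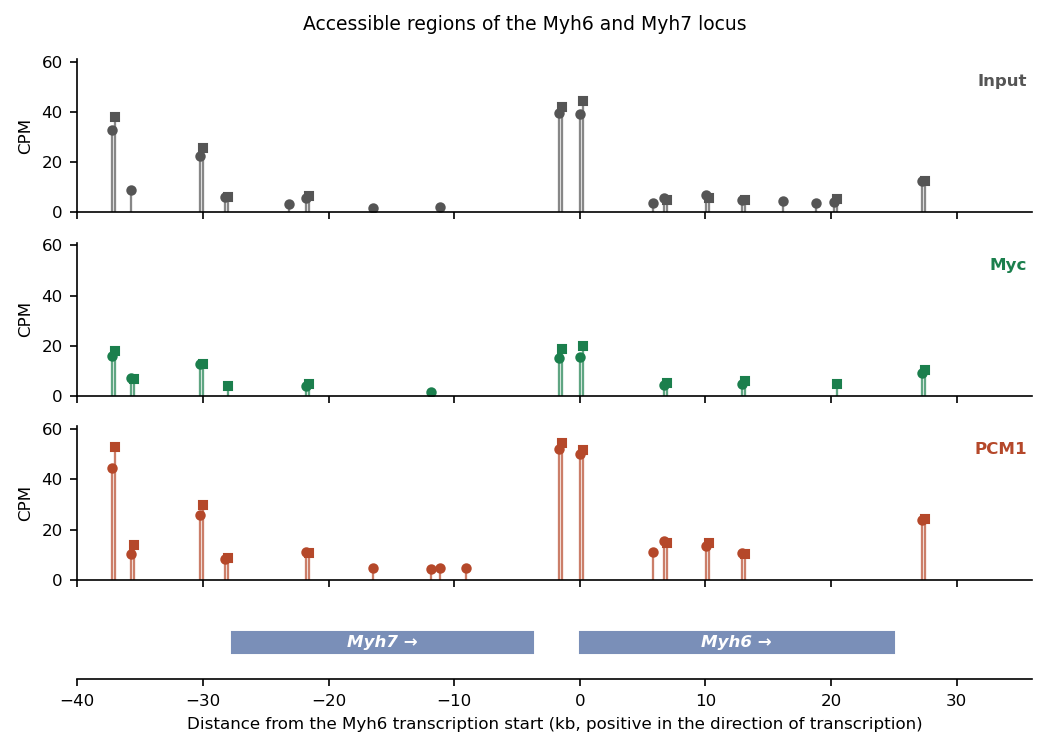
Accessible regions across Myh6 and Myh7. The horizontal axis is the distance in kb from the first Myh6 start site, in the direction of transcription, and the vertical axis is CPM at the summit; circles are replicate 1, squares replicate 2, colours the groups, and bars at the bottom the 2 genes. The Myh6 promoter, the gap region and the region 9.4 kb upstream of Myh7 rise to between 49.9 and 54.6 in the PCM1 replicates at the first 2 and to 52.8 at the last, whereas Myc stays at or below 20.1.

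The bodies of Myh6 and Myh7 are near-identical in places, and the lists do not say how reads that map to both were treated. A search of the genome with blastn for alignments of at least 90% identity found a copy elsewhere for 9 of the 93 regions, and 8 of the 20 heavy chain regions on chromosome 14 matched the other gene. The Myh6 intron region 6.8 kb into the gene has such a partner in Myh7, 6.0 kb into that gene (chr14:54988419-54989040). The pair aligned over 655 bp at 95.3% identity, with 29 mismatches and 2 gap bases. A stretch of 151 bases at the Myh6 summit is shown with its Myh7 counterpart, with the 7 bases that differ in capitals, since tags could only be told apart by reads that cover such bases.
Myh6 intron, chr14:54960061-54960211: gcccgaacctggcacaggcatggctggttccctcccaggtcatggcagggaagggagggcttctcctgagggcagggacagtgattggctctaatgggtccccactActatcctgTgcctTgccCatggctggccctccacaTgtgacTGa
Myh7 intron, chr14:54988565-54988715: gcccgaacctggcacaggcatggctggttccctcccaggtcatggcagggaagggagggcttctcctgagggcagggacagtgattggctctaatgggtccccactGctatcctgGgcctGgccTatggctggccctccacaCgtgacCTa

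The Myh7 copy held 5.78 and 6.47 CPM in Input, 3.79 and 4.69 after Myc capture, and 11.1 and 10.7 after PCM1 capture. PCM1 was again above the other 4 libraries (0.71 ± 0.19 against Input, limma adjusted p = 0.0117). The values of this pair and of the Myh6 coding exon region, which matches Myh7 over 264 bp at 96.6% identity, are therefore uncertain as to gene. No copy was found for the Myh6 promoter, the gap region, the Myh7 promoter or the regions 2.4 and 9.4 kb upstream of Myh7.

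Myh7b (ENSMUSG00000074652.3, chr2:155611212-155634307, plus strand) had 13 regions, 7 of them in all 6 libraries, none with a copy elsewhere. The promoter summit (chr2:155610929-155611568) held 8.001 and 8.14 CPM in Input, 7.13 and 7.67 for Myc, and 8.54 and 11.3 for PCM1, close to the median promoter. The groups were ordered but near each other, and Myc was 1.36-fold below PCM1 (-0.45 ± 0.17, limma adjusted p = 0.0422). The upstream region chr2:155606167-155606758 differed more (-0.89 ± 0.19, limma adjusted p = 5.15e-04). The downstream region chr2:155634649-155635523, which lies in Trpc4ap, held 2.62 and 2.19 in Input against 1.78 and 3.20 in the Myc and 4.71 and 6.16 in the PCM1 libraries, and was higher in PCM1 than in Input (1.05 ± 0.29, limma adjusted p = 0.0146). None of the 7 passed between Myc and Input in limma (2 were lower at an unadjusted p under 0.05), where the differences ran from -0.69 to -0.04.

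Mybpc3 (ENSMUSG00000002100.15, chr2:91118144-91136516, plus strand) had a pair of regions at its start. The first (chr2:91117634-91118329) held 12.7 and 11.9 CPM in Input, 10.1 and 8.86 after Myc capture, and 17.9 and 21.2 after PCM1 capture. The second (chr2:91118519-91119180) held 18.0 and 18.3 in Input, 8.98 and 10.4 after Myc capture, and 25.6 and 24.2 after PCM1 capture. At both, the 3 groups did not overlap, with PCM1 highest and Myc lowest. The Myc to PCM1 differences were -1.08 ± 0.14 and -1.41 ± 0.12 (limma adjusted p = 2.60e-07 and 1.52e-10). The first was also higher in PCM1 than in Input (0.54 ± 0.14, limma adjusted p = 0.00782), whereas the second was 0.34 ± 0.12 above Input (0.0696).

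Within the same window lies the 3′ end of Spi1, which encodes the myeloid transcription factor PU.1, and the region there (chr2:91115049-91115575) went the opposite way. It held 8.38 and 6.996 CPM in Input against 12.7 and 12.7 in the Myc and 6.79 and 6.87 in the PCM1 libraries. Both Myc libraries were above the other 4, by 0.85 ± 0.16 against PCM1 (limma adjusted p = 1.49e-04) and 0.57 ± 0.16 against Input (0.0172). The Mybpc3 intron region chr2:91130037-91130550 and a downstream region in Madd (chr2:91136612-91139592) were higher in PCM1 than in Input, by 1.02 ± 0.23 and 1.08 ± 0.26 (limma adjusted p = 0.00296 and 0.00498).

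Myl2 (ENSMUSG00000013936.12, chr5:122100951-122113472, plus strand) was the one gene of the 9 whose regions were all called in every library, 5 of 5. In all 5 Myc was below PCM1 and below Input. The promoter summit (chr5:122100627-122101287) held 864 and 199 tags in Input, 165 and 191 after Myc capture, and 194 and 260 after PCM1 capture, or 23.4 and 20.8, 12.2 and 14.2, and 21.2 and 30.8 CPM. The Input and PCM1 ranges overlapped, and Myc lay below both (-0.996 ± 0.13 against PCM1, limma adjusted p = 2.93e-07).

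The strongest difference of all 46 regions was at the 3′ side of Myl2, in an intron 8.9 kb from the start (chr5:122109032-122111842), where Ccdc63 is also annotated. Its summit held 900 and 273 tags in Input, 135 and 167 for Myc, and 404 and 400 for PCM1. In CPM this was 24.3 and 28.5 in Input against 10.02 and 12.4 in the Myc and 44.2 and 47.4 in the PCM1 libraries, so that no 2 groups overlapped. Myc was 4.22-fold below PCM1 (-2.08 ± 0.11, limma adjusted p = 2.56e-16) and 1.40 ± 0.11 below Input on the log2 scale (-1.40, 8.68e-12), and PCM1 was above Input by 0.68 ± 0.11 (5.28e-05).

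Upstream of Myl2, the region 7.9 kb away (chr5:122092618-122093356) held 29.3 and 32.9 CPM in Input, 13.1 and 14.2 after Myc capture, and 33.9 and 33.8 after PCM1 capture. RefSeq places further Myl2 transcript starts inside it. PCM1 and Input differed there by 0.01 ± 0.10, and Myc lay 1.36 ± 0.10 below PCM1 on the log2 scale (-1.36). The region 6.3 kb upstream (chr5:122094388-122095006) held 27.8 and 27.1 in Input, 15.7 and 18.0 for Myc, and 34.2 and 40.7 for PCM1, with PCM1 above Input by 0.32 ± 0.10 (limma adjusted p = 0.0351). The last region, 1.8 kb into the gene (chr5:122102188-122102896), held 9.73 and 11.0 in Input against 7.05 and 5.66 in the Myc and 14.2 and 17.3 in the PCM1 libraries.

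**Figure D3:**
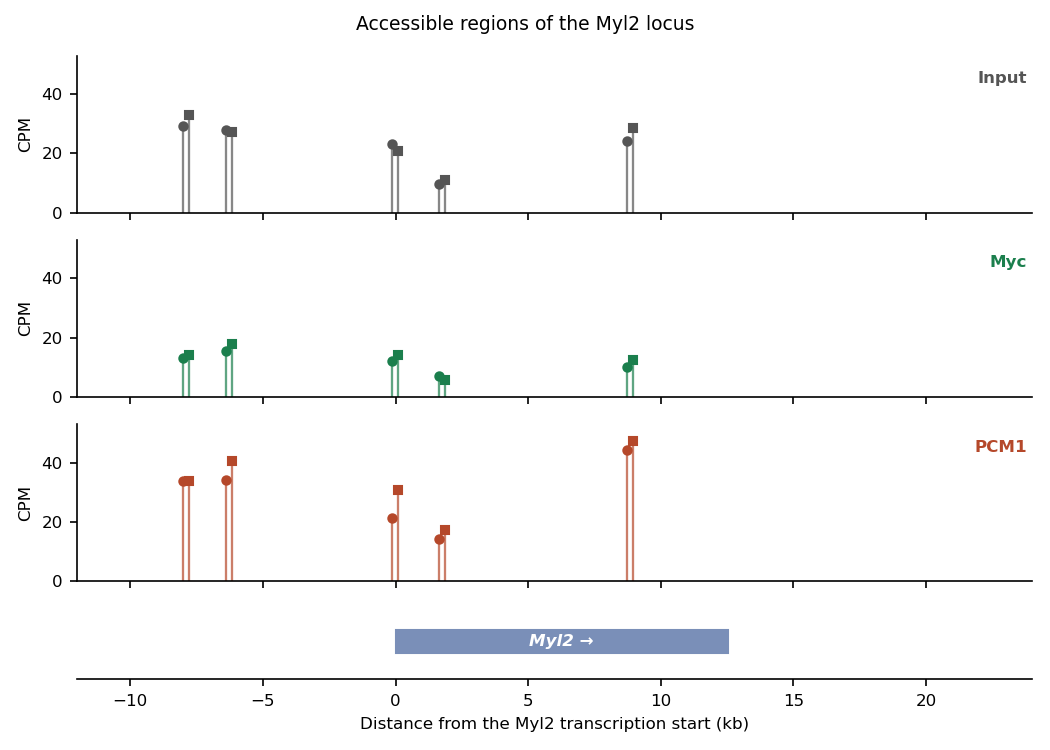
Accessible regions across Myl2. The horizontal axis is the distance in kb from the first Myl2 start site, and the vertical axis is CPM at the summit; circles are replicate 1, squares replicate 2, colours the groups, and bars at the bottom the genes. All 5 regions have their lowest values in Myc, and the groups lie furthest apart at the intron region 8.9 kb from the start, with 44.2 and 47.4 in PCM1 against 10.02 and 12.4 in Myc.

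Myl3 (ENSMUSG00000059741.13, chr9:110741861-110769798, plus strand) has several annotated starts. The first lies within 1 kb of Pth1r, and its region (chr9:110742155-110743442) was weak, with 1.88 to 2.96 CPM over the 6 libraries. The main promoter (chr9:110763336-110763842) held 16.8 and 20.5 CPM in Input, 11.0 and 10.4 after Myc capture, and 18.2 and 19.2 after PCM1 capture. Myc was below the other 4 libraries (-0.85 ± 0.13 against PCM1, limma adjusted p = 3.80e-06), and PCM1 lay between the Input libraries (-0.11 ± 0.13, 0.651). At the neighbouring region (chr9:110765564-110766280) the difference was wider, -1.30 ± 0.16 against PCM1 and -1.003 ± 0.16 against Input.

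Myl7 (ENSMUSG00000020469.8, chr11:5896637-5898782, minus strand) had the weakest promoter of the set. The region chr11:5898436-5899068 held 74 and 22 tags in Input, 16 in Myc replicate 2 and 21 in PCM1 replicate 1, or 2.00 and 2.30, 1.19, and 2.30 CPM. At this depth the Myc replicate 2 count had an exact Poisson 95% interval of 9.15 to 26.0 tags. Of the 7 regions at Myl7, the downstream region chr11:5891364-5892826 was the one called in all 6. It held 2.89 and 1.98 in Input, 2.23 and 3.35 for Myc, and 4.49 and 5.57 for PCM1, with PCM1 above the other 4 libraries (0.94 ± 0.28 against Input, limma adjusted p = 0.0255).

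Myl4 (ENSMUSG00000061086.12, chr11:104550663-104595753, plus strand) stood apart from the other 8 genes. Its first annotated start is shared with Cdc27, a subunit gene of the anaphase-promoting complex, and the region there (chr11:104549951-104551050) held 7.19 and 6.68 CPM in Input against 10.5 and 10.4 in the Myc and 6.24 and 6.75 in the PCM1 libraries. Myc was above the other 4 libraries and 1.56-fold above PCM1 (0.64 ± 0.17, limma adjusted p = 0.00439). Which of both genes this region serves cannot be read from peaks.

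The start of Myl4 that no other gene shares (chr11:104576801-104577493) was weak and did not show that order. Its summit held 109 and 20 tags in Input, 35 and 27 after Myc capture, and 27 and 40 after PCM1 capture, or 2.95 and 2.09, 2.60 and 2.01, and 2.96 and 4.74 CPM. The groups touched or overlapped, and the Myc to PCM1 difference was -0.75 ± 0.30 (limma adjusted p = 0.0565). Further into the gene, the intron region chr11:104589936-104590655 held 7.49 and 6.47 in Input, 8.32 and 8.71 for Myc, and 5.04 and 4.74 for PCM1. It was the one member region that was lower in PCM1 than in Input (-0.63 ± 0.19, limma adjusted p = 0.0242), and it was higher in Myc than in PCM1 (0.76 ± 0.19, 0.00211). One Myl4 intron region, chr11:104581443-104581835, was called in both Myc libraries and in no other, with 2.08 and 2.31 CPM.

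Mylk3 (ENSMUSG00000031698.14, chr8:85324303-85386345, minus strand) had 3 regions at annotated starts, all called in every library. The middle one (5.3 kb from the first start) was the strongest, with 26.5 and 26.2 CPM in Input against 16.0 and 15.6 in the Myc and 29.1 and 34.7 in the PCM1 libraries. The inner one, 20.9 kb from the first start, held 16.5 and 15.6 in Input, 11.1 and 10.6 after Myc capture, and 16.1 and 18.1 after PCM1 capture. The outermost held 9.62 and 11.7 in Input, 7.28 and 4.84 after Myc capture, and 9.42 and 9.71 after PCM1 capture. At all 3 the Myc libraries were below the other 4, by -1.05 ± 0.10, -0.70 ± 0.13 and -0.73 ± 0.18 against PCM1 (limma adjusted p = 2.37e-09, 8.44e-05 and 0.00226). None of the 7 Mylk3 regions tested differed between PCM1 and Input by the limma fit (1 was higher at an unadjusted p under 0.05), and the 3 start regions gave 0.15, -0.03 and -0.27.

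Promoter rank percentiles were compared within each library for 4 pairs of genes with related roles. The sign of the within-library difference was flipped in all ways over the 6 libraries (exact permutation test, two-sided). With 6 libraries 0.03125 is the smallest p possible, and p-values were adjusted over the 4 pairs. Myh6 ranked above Myh7 by 62.1 ± 18.5 percentile points (SD, n = 6, range 31.9 to 88.8), in 6 of 6 libraries (exact permutation test, adjusted p = 0.0417). Myl2 ranked above Myl7 by 72.1 ± 24.3 (range 36.1 to 97.2), also in 6 of 6 (exact permutation test, adjusted p = 0.0417). Myh7 ranked below Myh7b in 6 of 6, by -53.4 ± 21.3 (exact permutation test, adjusted p = 0.0417). The rank uses the q-value against the surrounding 10 kb, which were dense in tags at Myh7. In summit CPM the gap was -0.43 on the log2 scale over the 5 libraries with both peaks, and in PCM1 the Myh7 promoter, at 8.32 and 8.76 CPM, was above the shared Myl4 start and near Myh7b.

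The fast heavy chain promoter and the ventricular regulatory light chain promoter thus outranked their slow and atrial counterparts in every group. The ventricular and atrial essential light chains did not separate, since Myl3 exceeded Myl4 by 5.06 ± 6.26 points, in 4 of 6 libraries (exact permutation test, adjusted p = 0.125). That comparison rests on the start which Myl4 shares with Cdc27. With shared starts left out, Myl3 exceeded Myl4 by 41.7 ± 16.9 points in every library (exact permutation test, adjusted p = 0.03125). The Myh7 comparisons rest on the 1 kb around its start. With the promoter drawn at 3 kb, which takes in the region 2.4 kb upstream, Myh6 exceeded Myh7 by 1.07 points (exact permutation test, adjusted p = 0.25), and Myh7 exceeded Myh7b by 7.70 points (0.0625).

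Across the groups, both Myc promoter ranks were below both PCM1 ranks for 6 of the 9 genes, which held for 7.72% of 15498 protein-coding genes. Both Myc ranks were above both PCM1 ranks for 1 gene, Myl4, read at the start it shares with Cdc27, as for 63.5% of all. Both Myc ranks were below both Input ranks for 7 genes (8.73% of all). Both PCM1 ranks were above both Input ranks for 1 gene, Mybpc3 (3.59% of all), and for 0 when ranked by fold (9.05% of all). This count was larger without Input replicate 1 and by log2 CPM. The share of all genes was not computed under those settings, so their counts are not given. Ranks shift with the length of a list, which ran from 75336 to 131500 peaks. With all lists cut to 75336 peaks, 7 genes were lower in Myc than in PCM1 (16.0% of all) and 1, Myl4, higher (48.1%), 8 were lower in Myc than in Input (17.8%), and 3 (Myh6, Mybpc3 and Mylk3) were higher in PCM1 than in Input (17.1%). With 2 libraries against 2, a two-sided exact permutation test cannot give a p below 0.333.

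In the limma fit over regions, Myc was lower than PCM1 at 30 of the 46 member regions, as at 13.7% of all 48861 regions, and higher at 3, as at 15.1% of all. Myc was lower than Input at 19 (9.12% of all) and higher at 1 (4.16% of all). PCM1 was higher than Input at 13 (2.88% of all) and lower at 1 (7.91% of all). The median log2 difference over the 46 regions was -0.87 between Myc and PCM1, -0.42 between Myc and Input and 0.31 between PCM1 and Input, while over all regions the medians were -0.00, -0.02 and -0.04. With libraries centred on the median promoter, the count lower in Myc than in PCM1 was 37 (36.6% of all) and higher 1 (4.79%), and the count higher in PCM1 than in Input was 22 (10.7%). Fewer regions were higher in PCM1 than in Input without Input replicate 2 or without PCM1 replicate 2, among the members as over all regions. The member median was then 0.29 and 0.22, and the median over all regions was -0.04 in both. Without the 3 regions that have a near copy in the other heavy chain gene, 27 of 43 were lower in Myc than in PCM1 and 10 were higher in PCM1 than in Input.

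The 30 regions were spread over 8 of the genes. They took in 5 of 5 regions at Myh6, 3 of 3 at Myh7, 5 of 5 at Myl2, 1 of 1 at Myl7, 4 of 5 at Mybpc3, 5 of 7 at Myh7b, 3 of 5 at Myl3 and 4 of 7 at Mylk3. At Myl4 none of 8 was lower in limma (1 at an unadjusted p under 0.05) and 2 were higher. The third higher region was that at the 3′ end of Spi1. The 13 regions higher in PCM1 than in Input belonged to Myh6 (3), Mybpc3 (3), Myl2 (3), Myh7 (2), Myh7b (1) and Myl7 (1).

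**Figure D4:**
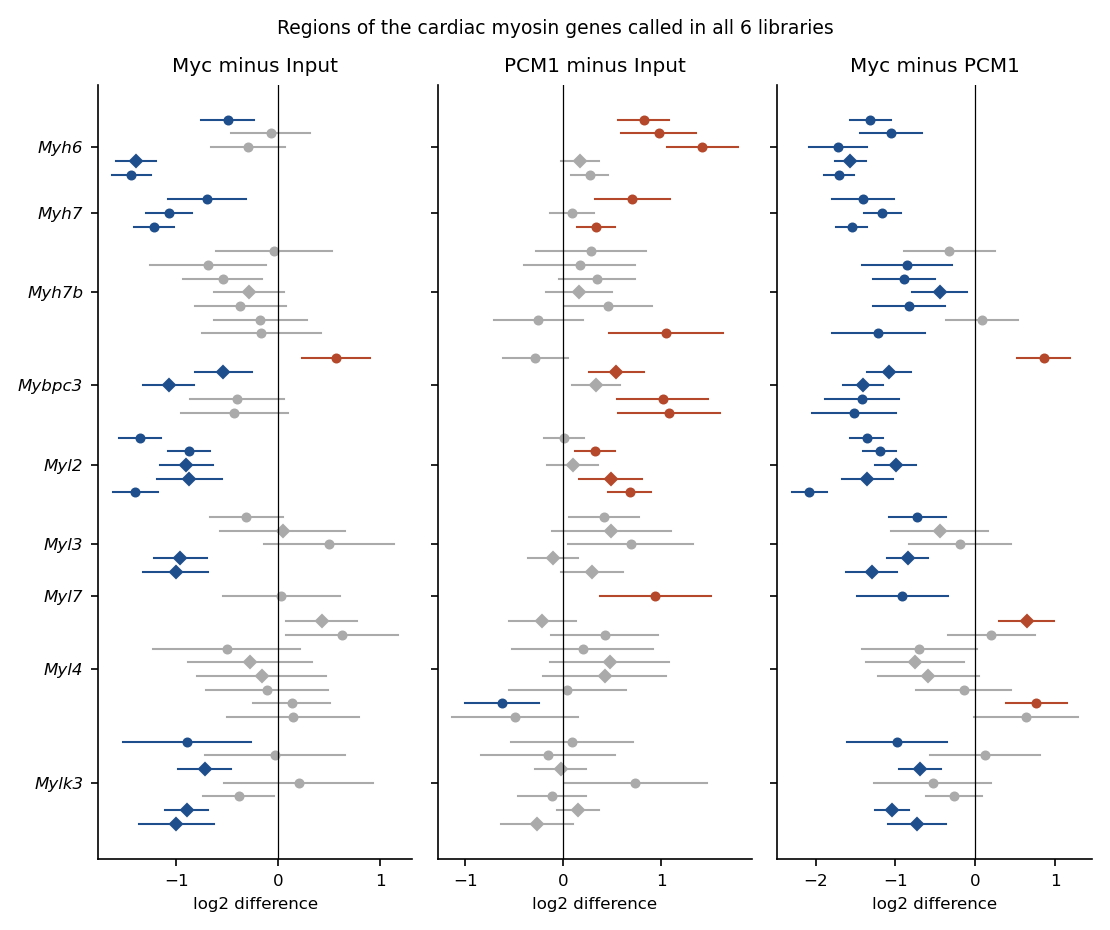
Group differences at the 46 member regions called in all 6 libraries. Each point is a region, on the horizontal axis its log2 difference with its 95% interval from the limma fit, in a panel per comparison; rows are ordered by gene, diamonds are promoter regions and circles other regions, blue is lower, red higher and grey not past an adjusted p of 0.05. Between Myc and PCM1, 30 points are blue and 3 red, and between PCM1 and Input 13 are red and 1 blue.

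The tags in the 10 kb around the promoter summit gave a second readout, which takes in the surroundings of the peak as well as the peak. Relative to the genome mean, this density was 54.8 and 54.8 at Myh6 in Input against 30.5 and 34.5 in the Myc and 79.6 and 83.7 in the PCM1 libraries. At Myl2 it was 22.7 and 19.3 in Input, 16.5 and 16.1 after Myc capture, and 34.0 and 39.1 after PCM1 capture. Around the intron region at the 3′ side of Myl2 the density reached 47.0 and 47.2 in Input, 28.1 and 30.6 for Myc, and 94.1 and 100.01 for PCM1. The weak Myh7 promoter also lay in dense surroundings, at 20.3 and 21.2 in Input, 15.9 in Myc replicate 2, and 35.8 and 37.7 in PCM1. Myl4 was low throughout, at 4.69 and 4.41 in Input against 6.90 and 6.41 in the Myc and 4.53 and 4.07 in the PCM1 libraries.

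In the limma fit of this 10 kb measure, which covered 12918 genes and 7 of the 9 members (Myh7 and Myl7 lacked a promoter peak in some library), Myc was lower than PCM1 for 6, as for 9.01% of all, and higher for 1, Myl4, as for 43.1% of all. The differences between Myc and PCM1 were -1.31 ± 0.07 for Myh6 and -1.14 ± 0.08 for Myl2 (limma adjusted p = 7.83e-09 and 7.42e-08). They were -0.91 ± 0.08 for Myl3, -0.75 ± 0.07 for Mybpc3, -0.74 ± 0.10 for Myh7b and -0.71 ± 0.07 for Mylk3. For Myl4, read at the start it shares with Cdc27, the difference was 0.65 ± 0.11 (limma adjusted p = 2.61e-04).

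On the same measure, Myc was lower than Input for 6 genes (9.34% of all) and higher for 1, Myl4 (12.0% of all). PCM1 was higher than Input for 5 (4.21% of all): Myl2 by 0.62, Myh7b by 0.44, Myh6 by 0.40, and Mybpc3 and Myl3 by 0.34 each. PCM1 was lower than Input for none of the 7 at an adjusted p under 0.05 in limma, against 29.3% of all genes and 1 of the 7 at an unadjusted p under 0.05. Mylk3, at 0.07 ± 0.07 (limma adjusted p = 0.435), and Myl4, at -0.26 ± 0.11 (0.0847), did not pass.

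**Figure D5:**
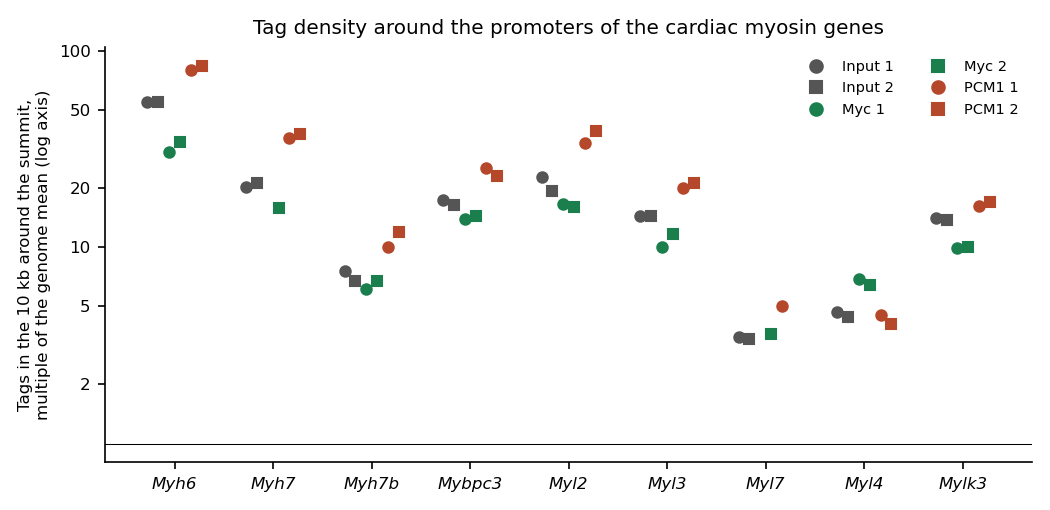
Tag density in the 10 kb around the promoter summit of each gene, relative to the genome mean of the library (log axis). Circles are replicate 1, squares replicate 2, and colours the groups; a missing symbol means that no promoter peak was called. At Myh6 the PCM1 libraries stand at 79.6 and 83.7 and the Myc libraries at 30.5 and 34.5. At Myl4, read at the start shared with Cdc27, the Myc libraries are the highest, at 6.90 and 6.41.

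With libraries scaled to the median region, promoters as a class moved the other way. In a limma fit of promoter summits, Myc was higher than PCM1 at 40.2% of 12918 genes and lower at 9.20%. Of the 7 members tested, 6 were lower and 1, Myl4 at the start shared with Cdc27, was higher. Myc was lower than Input for 5 of the 7 (11.4% of all) and higher for none at an adjusted p under 0.05 (12.0% of all, and 1 of the 7 at an unadjusted p under 0.05). PCM1 was higher than Input for 1 (2.11% of all) and lower for none, adjusted or unadjusted (27.4% of all). The shift of the class depended on the scaling. In the 10 kb fit centred on the median promoter, Myc was higher than PCM1 for 14.2% of all genes and lower for 25.7%. Of the 7 members, 1 was higher and 6 were lower there.

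Other myosin genes were taken from lists fixed by name. Of 11 skeletal and developmental myosin genes, 3 had a promoter peak in all 6 libraries, and 6 (Myh1, Myh2, Myh3, Myh4, Myh13 and Mylk2) had none in any library. Of the 3, Myh8, a perinatal skeletal heavy chain, and Mylpf, a fast skeletal regulatory light chain, were lower in Myc than in PCM1 (-1.15 ± 0.35 and -0.52 ± 0.09, limma adjusted p = 0.00869 and 4.87e-05). Of 10 smooth muscle and non-muscle myosin genes, 9 were tested. Among these the smooth muscle heavy chain Myh11 and Myl12a were higher in Myc than in PCM1 (0.71 ± 0.23 and 0.75 ± 0.11), and Myh9, Myh10 and Myl6b were lower (-0.41, -0.36 and -0.36). Of 7 further thick filament and kinase genes, 3 were tested, with Ttn lower (-0.80 ± 0.12) and Myom1, which shares its promoter peak with Myl12a, higher (0.75 ± 0.11).

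The labelled cell types were checked against marker genes. All 10 CM markers, no member among them, had a promoter peak in all 6 libraries. Of these, 6 were lower in Myc than in PCM1 and none higher, adjusted or unadjusted, including Tnnt2 (-1.02 ± 0.11) and Nkx2-5 (-0.70 ± 0.12), with a median of -0.53, against 0.29 for all genes, of which 9.20% were lower and 40.2% higher. Against Input, 5 of the 10 were lower in Myc (11.4% of all) and none higher, adjusted or unadjusted, with a median of -0.36. PCM1 and Input differed at none of the 10 by limma (1 was higher in PCM1 at an unadjusted p under 0.05). Summed over the 10, the promoter summits held 134.5 and 148.9 CPM in Input, 103.8 and 112.1 after Myc capture, and 156.1 and 170.3 after PCM1 capture. The 7 members with a promoter peak in every library summed to 139 and 145, 82.6 and 88.7, and 159 and 179 CPM in the same order. Of the fibroblast markers 7 were tested and 4 were higher in Myc than in PCM1 (Col1a1, Dcn, Fn1 and Tcf21), and their sum was 25.2 and 23.3 CPM in Input against 36.7 and 35.8 in the Myc and 23.98 and 23.2 in the PCM1 libraries. Of the endothelial markers 9 were tested and 3 were higher (Tek, Erg and Kdr), with sums of 30.6 and 28.6 in Input, 40.8 and 45.1 after Myc capture, and 36.5 and 34.8 after PCM1 capture. Against Input, 5 of the 9 endothelial and 2 of the 7 fibroblast markers were higher in Myc (12.0% of all), with medians of 0.77 and 0.38 against 0.08 for all genes. Of the smooth muscle and pericyte markers 8 were tested and 1, Myh11, was higher, and the sums ranged from 25.8 to 30.1 CPM over the 6 libraries. Of 5 epicardial markers tested 1 was higher (sums of 13.8 to 20.05 CPM), of 3 atrial markers none passed, adjusted or unadjusted, and of 7 ventricular markers 1 was higher and 2 were lower. No immune marker had a promoter peak in all 6 libraries, and 7 of 10 (Ptprc, Csf1r, Cd68, Adgre1, Fcgr1, Itgam and Cx3cr1) had none in any. Apart from fibroblast, none of these lists had a larger share higher in Myc than in PCM1 than the 40.2% of all genes. The part of other cell types in the differences at the myosin genes was not tested.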

How the data were processed

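The files hold Omni-ATAC-Seq peaks of P1 heart nuclei, a list for each of 6 libraries. Per the study's methods and processing notes, reads were trimmed with fastq-mcf, mapped to mm10 with Bowtie2 2.3.3.1, marked for duplicates with Picard 2.2.1, cleared of blacklisted regions with bedtools 2.7.1 and shifted for Tn5, and peaks were called in each library alone with MACS2 2.1.0.20160309 at a q-value of 0.05. The deposited score is the authors' -log10 q-value times 10, cut to a whole number. The deposited fold is the authors' ratio of the summit pileup to the local background, with a pseudocount of 1 on both. The deposited -log10 p-values and -log10 q-values are those the authors' MACS2 gave for the summit.

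From fold and p-value, the summit tags were recovered, whole within 0.02. The tags of the surrounding 10 kb were recovered, whole within 0.05, where they exceeded the genome background. Depth was inferred from the most frequent background, with tags of 200 bp and the MACS2 mouse genome size of 1.87e+09, so all CPM values scale with that setting. The design had foreseen no counts and hence no test between groups. The limma fits on log2 CPM, centred on the median region of each library, were chosen after seeing the data. They leave 3 residual degrees of freedom for each feature. Each variance was moderated towards a trend over all features, which adds degrees of freedom from the other features. Benjamini-Hochberg adjustment was over all features tested, and a feature was called at an adjusted p under 0.05. Nothing says that the replicates of a group came from separate litters, so the p-values rest on the spread between these samples and on that moderation. Exact Poisson intervals cover counting error only.

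The members, the lists of related genes and the markers were chosen with earlier results of these data known. All 9 members were named, each with its promoter (strongest summit within 1 kb of a start of a protein-coding transcript) and strongest other region; a region went to the gene whose body held its strongest summit, and in the gap between Myh6 and Myh7 to the nearest start. The other regions named were chosen after their values were seen. Alternatives were another ranking, a q-value of 0.01, lists cut to the same length (75336 peaks), other promoter windows, other scalings, a replicate block and each library left out. Tools were Python 3.11.15, numpy 2.4.6, scipy 1.17.1, pandas 2.3.3, matplotlib 3.10.9, blastn 2.17.0, R 4.3.3 and limma 3.58.1, with GENCODE M21. The computations were tested on simulated data.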

Additional observations from a re-analysis of the deposited data

How the results depend on the processing

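Every call of a member region kept its direction under the scalings, the replicate block and each library left out. Not all of these calls stayed past a limma adjusted p under 0.05, those between PCM1 and Input among them. Of 247 recomputed values that answer a comparison, 187 kept their call or count. Of the others, 31 counts moved by over 1.5 times, 24 values lost and 1 gained significance, and 4 reversed. Ranked by fold, Myl3 minus Myl4 became -12.6 (exact permutation test, adjusted p = 0.0625). Myc then ranked below PCM1 for 3 genes (14.2% of all) and above for 2 (47.7%), and PCM1 above Input for 0 (9.05%). By log2 CPM, Myh6 minus Myh7 was 2.61, Myl2 minus Myl7 3.38 and Myh7 minus Myh7b -0.43. These cover the 4 or 5 libraries with both peaks, which cannot reach 0.05 in an exact permutation test. With an equal number of peaks PCM1 was above Input for 3 genes (17.1% of all). With promoters of 3 kb, Myh6 minus Myh7 was 1.07, Myl2 minus Myl7 72.1 (exact permutation test, adjusted p = 0.0625) and Myh7 minus Myh7b 7.70. With the strongest peak of the locus they were -0.98, 40.7 and 9.15. The count of genes with PCM1 above Input also moved by log2 CPM, with promoters of 3 kb and with the strongest peak. No share of all genes was computed there, so these counts are not given. With shared starts left out, Myl3 minus Myl4 was 41.7.

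With 1 library left out the smallest exact p is 0.0625, and the rank differences ranged from 56.7 to 68.1 (Myh6 minus Myh7), 67.1 to 79.3 (Myl2 minus Myl7) and -59.3 to -46.7 (Myh7 minus Myh7b). The counts of genes with PCM1 above Input and with Myc above PCM1 also moved when some libraries were left out. No share of all genes was computed there, so these counts are not given.

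In the limma fits, centring on the median promoter moved the median of all regions to -0.43 between Myc and PCM1, -0.20 between Myc and Input and 0.21 between PCM1 and Input, and in uncentred CPM the medians were 0.04, 0.15 and 0.08. Member regions higher in Myc than in Input numbered 3 in uncentred CPM (8.74% of all) and 0 with promoter centring (1.68%). Those lower in PCM1 than in Input numbered 0 under both (4.04% and 2.61% of all). Regions higher in Myc than in PCM1 numbered 1 with promoter centring (4.79% of all). Those higher in PCM1 than in Input numbered 22 with promoter centring (10.7% of all). With an Input or a PCM1 library left out they were fewer than in the main fit, as over all regions. In the 10 kb fit, members higher in Myc than in Input numbered 0 with promoter centring (4.17% of all). Members lower in PCM1 than in Input numbered 0 with promoter centring (10.1% of all) and 0 in uncentred CPM (8.24%). The causes of these changes were not tested.

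Across features, the replicate differences of any 2 groups correlated between -0.004 and 0.054. This cannot show whether the samples were paired, since much of such a difference may be counting error. With the replicate number as a block, 33 of 33 calls between Myc and PCM1, 19 of 20 between Myc and Input and 14 of 14 between PCM1 and Input remained, with 0, 1 and 1 gained. Of the 17 regions called in a single library, 9 came from the deepest one and 8 from the others; the part of depth was not tested.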
